A study of Mus musculus with 27 samples.

Results

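Splenic B cells held for 24 h with an antibody to CD40, and no added cytokine, were compared with the same kind of culture at 6 h. The comparison used 6 of the 27 libraries of the study, chosen by their labels alone: 3 at 6 h and 3 at 24 h. All cells were primary splenic B cells of wild-type mice, and the antibody was clone HM40-3 at 1 µg/mL. The sources used here give no strain or age. Uncultured naive B cells (3 libraries) served as a point of reference for telling a change that returned to its starting level from one that lasted. The other 18 libraries came from cultures with the same antibody plus a cytokine, at the same times: IL-4 (12.5 ng/mL), IL-21 (50 ng/mL) or the pair of them. No label says whether the 3 libraries of a group came from separate animals or cultures, so p values measure the spread between these libraries, which may be technical.

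CD40 is a receptor of the tumour necrosis factor receptor family on B cells that is normally engaged by CD40 ligand on helper T cells. It recruits TRAF adaptors and activates NF-kB by a fast canonical and a slower non-canonical route. CD40 signals are known to take B cells out of quiescence, to raise costimulatory molecules and survival proteins, and to ready the cells for presenting antigen and for division. IL-4, which acts through STAT6, and IL-21, which acts through STAT3, are the helper T cell cytokines that shape what follows.

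RNA was measured as TPM, a level scaled for transcript length and library total, and 12147 genes reached 1 TPM in at least 3 of the 27 libraries. Values of a library summed to between 766384 and 825365 TPM, and TPM keep no sequencing depth, so the depth behind each value is unknown. Between 9619 and 9797 genes reached 1 TPM in a 6 h library, and between 10172 and 10557 in a 24 h library. The correlation of log2(TPM + 1) across genes was 0.964 to 0.982 between libraries of one time and 0.912 to 0.94 between a 6 h and a 24 h library. Mitochondrially encoded transcripts made up 8.51% to 11.84% of TPM in these 6 libraries. One naive library, replicate 1, stood apart with 5.5%, against 12.71% and 13.54% in the other two. Its values exceeded the mean of the other naive libraries by a median of 0.37 (log2) over all genes, so differences from naive cells are given as values, without a test. B cell markers Cd79a, Cd79b and Ms4a1 were present in every library.

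In what follows a change is the difference of log2(TPM + 1), 24 h minus 6 h, with its standard error (SE) and n = 3 libraries per time, so 1 unit is a 2-fold change for genes well above 1 TPM and more than that for lower genes. Levels in TPM are listed for replicates 1, 2 and 3 in that order. A gene was called when its p value from limma, adjusted by the Benjamini-Hochberg method over all 12147 genes, was below 0.05. Standard errors rest on a spread pooled over all 27 libraries. Time in culture cannot be told apart from any difference in collection or library preparation between the 2 times, for which no label gives a batch. In these bulk samples, fewer cells of a type and less RNA per cell cannot be told apart.

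Between 6 h and 24 h of anti-CD40, 2950 genes (24.3%) were called. Of these, 1957 (16.1%) rose and 993 (8.17%) fell, and 1660 (13.7%) changed at least 2-fold, 1287 of them upwards. The median change of all genes was 0.153. Rescaling the libraries by median of ratios brought that median to 0.028 and the split to 1961 higher and 1769 lower, so the excess of rises depended on the scaling. Leaving out replicate 3 at 24 h left 1122 rises, and leaving out replicate 2 at 6 h left 1222.

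**Figure D1:**
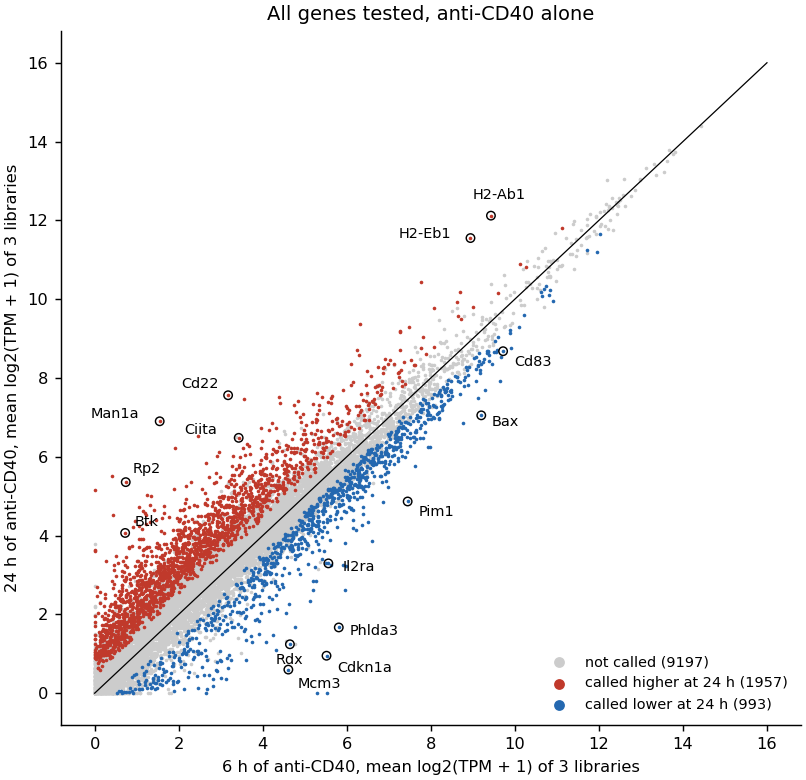
Mean log2(TPM + 1) of 3 libraries at 24 h (vertical) against 6 h (horizontal) for the 12147 genes tested, with genes called higher in red and lower in blue. Genes of antigen presentation and B cell identity (Ciita, H2-Ab1, Cd22) lie above the diagonal, and Cdkn1a, Phlda3, Bax and Pim1 lie below it.

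The largest rise among well expressed genes was that of Man1a, which encodes a mannosidase that trims N-linked glycans in the Golgi. Its level was 3.63, 1.72 and 0.982 TPM at 6 h and 119, 91.3 and 153 TPM at 24 h, a change of 5.35 ± 0.64 (SE, adjusted p = 2.87e-06). Naive libraries held 17.9, 2.68 and 1.89 TPM, below every 24 h library. Rp2, a regulator of small G proteins of the ARL family, went from 0.969, 0.0774 and 1.2 TPM to 47.1, 30.8 and 44.1 TPM (4.62 ± 0.44, adjusted p = 1.46e-07). The other large rises were those of Cd22, Pld4, Tmem176a, Atp2a3, Cfp, Mxd4, Wdr1 and Nxpe2, between 3.66 and 4.39. Atp2a3 encodes a calcium pump of the endoplasmic reticulum, Pld4 an endolysosomal exonuclease and Cfp properdin, a stabiliser of the complement convertase. Mxd4 encodes a MAX partner that opposes MYC, and its 6 h libraries at 1.17, 1 and 2.11 TPM lay far below the 24 h libraries at 32.1, 27.2 and 36.4 TPM.

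The largest fall was that of Cdkn1a, and it was followed by those of Phlda3, Mcm3, Rdx, Mars, Dusp5, Msmo1, Eif2b5, Cerk and Prrc2a, between -4.14 and -2.77. Rdx, which encodes radixin, a linker of actin to the membrane, was at 22.9, 27.4 and 22.2 TPM at 6 h. At 24 h it was at 1.74 and 3.83 TPM in replicates 1 and 3 and listed at 0 in replicate 2. Cerk, the ceramide kinase, was likewise listed at 0 in replicate 2 at 24 h, with 3.59 and 3.64 TPM beside it, against 16.6, 16.2 and 21.4 TPM at 6 h. Such values at or near 0 can be failed estimates for a gene with several transcripts, which TPM cannot show, and this was not tested for Rdx and Cerk. Dusp5, a nuclear phosphatase of the MAP kinase ERK, dropped from 28.2, 23.3 and 27 TPM to 2.33, 1.35 and 3.18 TPM (-3.08 ± 0.28, adjusted p = 6.91e-08). Its naive level was 4.98, 4.85 and 2.88 TPM, so the 6 h libraries stood above both other groups.

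Genes of MHC class II presentation rose together and had the highest median of the lists. Class II molecules display peptides of engulfed antigen to helper T cells. CIITA is the coactivator that turns their genes on, together with the RFX factors and with NF-Y, which binds the CCAAT box of their promoters. Of 15 genes measured, 14 rose and none fell, with a median change of 2.44 against 0.153 for all genes and 16.1% of all genes called higher. The count was 12 to 14 when any 1 of the 6 libraries was left out. Lgmn, a lysosomal protease, was the exception, at 0.51 ± 0.44 (adjusted p = 0.44).

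The promoters of class II genes show the element through which NF-Y acts, and those of 4 genes of the list are printed for that reason. Each run is the 150 bases before the transcription start in RefSeq (GRCm38.p6), written 5′ to 3′ on the strand of the gene, with CCAAT, or its reverse complement ATTGG, in capitals. The windows are chr17:34287824-34287973 on the minus strand for H2-Aa, and chr17:34305717-34305866, chr17:34145099-34145248 and chr17:34092229-34092378 on the plus strand for H2-Eb1, H2-DMb2 and H2-Oa.
H2-Aa: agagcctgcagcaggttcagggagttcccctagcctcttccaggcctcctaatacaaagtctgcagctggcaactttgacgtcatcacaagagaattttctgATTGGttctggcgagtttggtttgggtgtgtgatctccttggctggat
H2-Eb1: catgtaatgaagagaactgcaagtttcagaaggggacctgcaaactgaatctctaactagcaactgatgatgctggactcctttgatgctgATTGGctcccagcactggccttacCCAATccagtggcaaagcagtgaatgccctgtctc
H2-DMb2: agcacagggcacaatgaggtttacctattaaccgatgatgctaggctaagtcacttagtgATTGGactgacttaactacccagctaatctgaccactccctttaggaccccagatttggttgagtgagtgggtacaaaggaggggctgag
H2-Oa: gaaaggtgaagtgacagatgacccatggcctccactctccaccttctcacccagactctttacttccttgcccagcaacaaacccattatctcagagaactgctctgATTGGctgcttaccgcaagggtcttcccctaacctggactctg
The match began 48 bases before the start in H2-Aa, 59 and 35 bases before it in H2-Eb1, 90 in H2-DMb2 and 43 in H2-Oa. RefSeq promoters of 300 bases (250 before to 50 after the start) were at hand for 11 of the 15 genes, and 10 of their 13 promoters (76.9%) held CCAAT on either strand, against 37.4% of all 32851 promoters. A match is a description of the letters and not evidence of a bound factor.

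Ciita itself was at 10, 7.71 and 12 TPM at 6 h and at 82.5, 73.9 and 113 TPM at 24 h (3.05 ± 0.32, adjusted p = 4.32e-07). Naive cells held 68, 39.6 and 35.4 TPM, so Ciita was low only at 6 h and every 24 h library lay above every naive one. Rfx5, a subunit of the RFX complex, rose by less, from 13.4, 11.7 and 15 TPM to 37.1, 32.5 and 41.7 TPM (1.41 ± 0.28, adjusted p = 0.000874).

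The classical class II chains were among the most abundant mRNAs. H2-Ab1 was at 1252, 650 and 402 TPM at 6 h and at 4590, 3646 and 5261 TPM at 24 h (2.69 ± 0.57, adjusted p = 0.00143). H2-Eb1 went from 800, 434 and 341 TPM to 2967, 2487 and 3658 TPM (2.61 ± 0.52, adjusted p = 0.000794). For both chains the 24 h libraries lay within or above the naive range, which was 2174 to 5136 TPM and 1834 to 4525 TPM. H2-Aa rose from 125, 101 and 96.2 TPM to 360, 301 and 276 TPM (1.53 ± 0.35, adjusted p = 0.00279), but its 24 h mean was 1.07 below the naive mean on the log2 scale. Naive H2-Aa libraries read 475, 839 and 704 TPM, all above the 24 h ones.

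The chaperones of class II loading moved with the chains. Cd74, the invariant chain, was at 410, 175 and 141 TPM at 6 h and at 1357, 1194 and 1665 TPM at 24 h (2.68 ± 0.62, adjusted p = 0.00319). H2-DMb2, part of the peptide exchange factor H2-M, rose from 130, 61.9 and 61 TPM to 662, 548 and 800 TPM (3.05 ± 0.42, adjusted p = 1.63e-05). It is nearly identical in part to H2-DMb1 (2.44 ± 0.37), so the division of reads between that pair is uncertain. H2-Oa, a subunit of the inhibitor of H2-M, rose the most of the list, from 28.3, 17.1 and 16.7 TPM to 199, 146 and 205 TPM (3.11 ± 0.36, adjusted p = 1.58e-06). March1, a ubiquitin ligase that removes class II molecules and CD86 from the cell surface, rose with them, from 1.47, 0.697 and 2.04 TPM to 19.4, 16.7 and 20.2 TPM (3.08 ± 0.31, adjusted p = 3.88e-07).

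**Figure D2:**
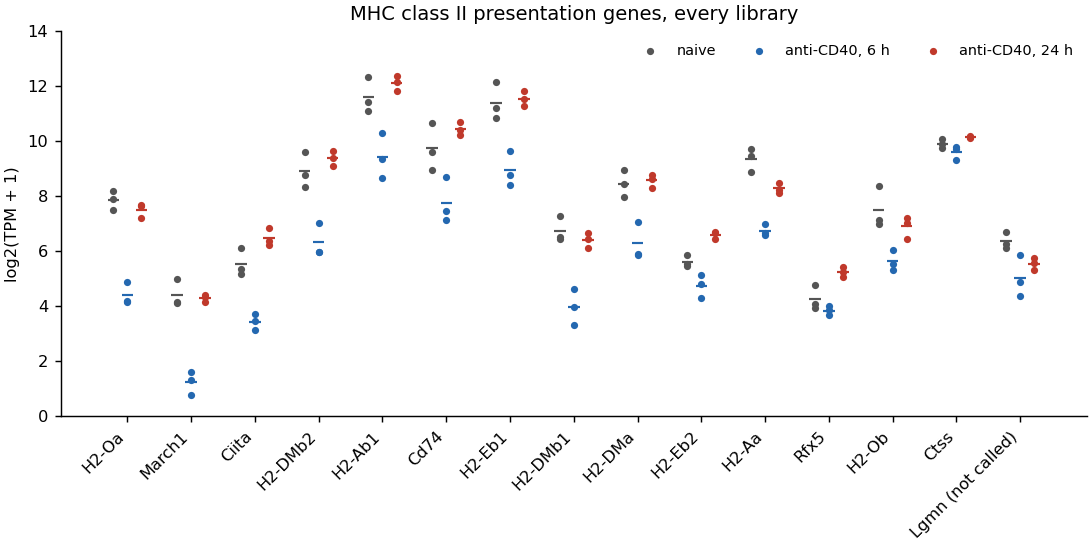
Level of each of the 15 measured MHC class II presentation genes as log2(TPM + 1) in every naive (grey), 6 h (blue) and 24 h (red) library, with bars at group means and genes in order of their change. The 6 h libraries lie below the 24 h libraries for 14 genes, and for most genes the 24 h libraries are close to the naive ones.

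Seen from naive cells, the class II list dipped and came back: its median was 2.17 (log2) below naive at 6 h and 0.15 above it at 24 h. These medians touch the naive library that stood apart, since its class II genes exceeded those of the other two by a median of 0.82. Summed over the list, naive libraries held 7435 to 15064 TPM, 6 h libraries 1877 to 3967 TPM and 24 h libraries 10166 to 14050 TPM. Macrophages and dendritic cells also carry class II molecules. The 14 macrophage and monocyte markers summed to 11.4 to 13.6 TPM at 6 h and 5.52 to 9.32 TPM at 24 h, against 112 to 149 TPM in naive cells. The 10 dendritic cell markers summed to 7.97 to 8.6 TPM at 6 h and 3.36 to 6.95 TPM at 24 h. The part of such cells in the class II changes was not tested. Of the macrophage markers, Lyz2 fell and Adgre1, at 1.52, 0.412 and 2.31 TPM at 24 h, was called higher, though not when replicate 3 at 24 h was left out (adjusted p = 0.0569). Fcgr1 was listed at 0 in all 24 h libraries.

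Class I presentation changed less. Of 13 genes, 4 rose and 1 fell, beside 16.1% and 8.17% of all genes. H2-T23, a nonclassical class I chain, rose by 1.84 ± 0.40 (adjusted p = 0.00158), and Tapbp, which encodes the peptide loading chaperone tapasin, by 1.75 ± 0.53 (adjusted p = 0.0192). Nlrc5, the class I counterpart of Ciita, was at 8.31, 5.28 and 6.89 TPM at 6 h and at 15.1, 11.5 and 17.8 TPM at 24 h (1.01 ± 0.33, adjusted p = 0.0289). B2m, the shared light chain, fell by 0.46 ± 0.16 (adjusted p = 0.0377). The call of Nlrc5 was lost without any of 4 single libraries (adjusted p = 0.064 to 0.122), that of B2m without any of 5 (adjusted p = 0.0616 to 0.225), and that of Tapbp without replicate 3 at 24 h or replicate 2 or 3 at 6 h.

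Genes of B cell identity and of the B cell receptor complex also rose in part. Of 28 measured, 13 rose and none fell, beside 16.1% and 8.17% of all genes. The list had a median of 1.02, and 11 to 13 rose when 1 library was left out. Cd22, an inhibitory coreceptor that binds sialic acid, was at 10.7, 5.23 and 9.09 TPM at 6 h and at 178, 143 and 260 TPM at 24 h (4.39 ± 0.48, adjusted p = 8.31e-07). Naive libraries at 249, 117 and 79.5 TPM overlapped the 24 h ones, so Cd22 was low at 6 h only. Cr2, the complement receptor that lowers the threshold of antigen signals, went from 30.9, 26.5 and 23.1 TPM to 134, 116 and 171 TPM (2.33 ± 0.31, adjusted p = 1.15e-05). It did not reach its naive level of 378, 314 and 285 TPM.

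The signalling kinase Btk and the transcription factor Ikzf1 behaved otherwise. Btk was near or below 1 TPM both in naive cells (0.511, 1 and 0.494 TPM) and at 6 h (0.821, 0.511 and 0.644 TPM). At 24 h its libraries read 14.3, 12.1 and 22.4 TPM (3.34 ± 0.46, adjusted p = 1.83e-05). Ikzf1, which encodes Ikaros, was at 2.01, 1.04 and 4.14 TPM at 6 h and 26.9, 19.1 and 34.6 TPM at 24 h (3.10 ± 0.71, adjusted p = 0.0027). It was listed at 0 in naive replicate 2, beside 4.78 and 0.137 TPM in the other naive libraries. Whether the low values of Btk and Ikzf1 are levels or failed estimates was not tested.

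Other identity genes also rose. Ebf1, a factor that specifies the B lineage, changed by 2.02 ± 0.31 (adjusted p = 5.33e-05), Ikzf3, which encodes Aiolos, by 2.12 ± 0.33 (adjusted p = 6.03e-05) and Fcmr, the receptor for the Fc part of IgM, by 2.47 ± 0.64 (adjusted p = 0.00727). Ms4a1, which encodes CD20, was at 360, 427 and 387 TPM at 6 h and 953, 1118 and 886 TPM at 24 h (1.33 ± 0.19, adjusted p = 3.51e-05). Pax5, the factor that maintains B cell identity, was not called, at 46.1, 34.8 and 55.1 TPM and then 52.3, 47 and 82.1 TPM (0.39 ± 0.38, adjusted p = 0.499). Cd79a was called (1.49 ± 0.53, adjusted p = 0.0452), but without any of 5 single libraries it was not (adjusted p = 0.0637 to 0.173), and Cd79b and Ighm were not called. Of 12 immunoglobulin constant genes, only Iglc3 rose (0.77 ± 0.20, adjusted p = 0.00612), and under median-of-ratios rescaling it was not called (adjusted p = 0.175).

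Targets of p53 fell as a group, with the lowest median of the lists after that of erythroid and platelet markers. p53 is a transcription factor stabilised by DNA damage and by other stress, and its targets slow the cell cycle and favour cell death. Of 17 genes measured, 9 fell and 1 rose, with a median of -1.01, beside 8.17% of all genes called lower. The count of falls was 9 with any 1 of the 6 libraries left out. Cdkn1a, which encodes the inhibitor p21 of cyclin-dependent kinases, was at 45, 37.9 and 52.6 TPM at 6 h and at 1.22, 0.651 and 0.974 TPM at 24 h (-4.57 ± 0.25, adjusted p = 5.46e-11). Its naive level was 0.938, 1.12 and 0.882 TPM, so p21 mRNA was high only at 6 h. Phlda3, an inhibitor of AKT, was at 58.8, 51.8 and 54.9 TPM at 6 h and at 2.1, 1.22 and 3.67 TPM at 24 h (-4.14 ± 0.23, adjusted p = 5.46e-11). It was still above naive cells, which held 0.227, 0.116 and 0.301 TPM.

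Bax, the pore-forming killer of the BCL2 family, was at 619, 545 and 600 TPM at 6 h and at 141, 118 and 138 TPM at 24 h (-2.15 ± 0.14, adjusted p = 6.88e-10). Its naive level of 147, 102 and 97.6 TPM was close to the 24 h level. Ccng1, which encodes cyclin G1, was at 237, 260 and 254 TPM and then at 78.5, 67.5 and 79.4 TPM (-1.73 ± 0.16, adjusted p = 1.09e-07). Aen, an exonuclease of apoptosis, fell by 1.33 ± 0.22 (adjusted p = 0.000158). Pmaip1, which encodes the BH3-only killer NOXA, fell by 1.68 ± 0.20 (adjusted p = 1.97e-06), to 5.68, 4.48 and 7.83 TPM, and so went below its naive libraries at 16.1 to 25.5 TPM. Other targets were not called: Mdm2, the ligase that degrades p53, changed by -0.51 ± 0.43 (adjusted p = 0.429) and Bbc3, which encodes PUMA, by -0.64 ± 0.53 (adjusted p = 0.418). Sesn1 was the one riser (0.45 ± 0.15, adjusted p = 0.0291), and rescaling by median of ratios ended its call (adjusted p = 0.211), as did leaving out any of 4 libraries.

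Among the wider cell death machinery the members went different ways. Bcl2l11, which encodes the killer BIM, was at 18, 19.3 and 20.8 TPM at 6 h and at 5.06, 5.38 and 6.51 TPM at 24 h (-1.62 ± 0.23, adjusted p = 1.88e-05). Bcl2l1, which encodes the survival protein BCL-XL, fell as well, from 23.8, 27.2 and 33 TPM to 6.77, 6.36 and 11 TPM (-1.71 ± 0.31, adjusted p = 0.000361). It stayed far above its naive level of 0.568, 0.877 and 0.474 TPM. Bcl2 went the opposite way, from 4.21, 4.75 and 4.83 TPM to 13.2, 11.4 and 17.1 TPM (1.40 ± 0.24, adjusted p = 0.000207), still below its naive level of 31.7, 27.4 and 26.3 TPM. Bcl2a1d, one of several near-identical genes for the survival protein A1 among which reads are divided uncertainly, fell by 0.74 ± 0.24 (adjusted p = 0.0263), and 4 single libraries each decided that call (adjusted p = 0.0743 to 0.0981 without them). Counted over the lists, 3 of 13 anti-apoptotic genes rose and 2 fell, and 3 of 12 pro-apoptotic BCL2 family members and caspases rose and 4 fell. The shares over all genes were 16.1% and 8.17%.

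The growth programme that builds ribosomes was lower at 24 h. MYC drives genes of ribosome assembly and of nucleotide and polyamine synthesis in activated lymphocytes. Of 25 genes of MYC and ribosome biogenesis, 12 fell and 1 rose, beside 8.17% and 16.1% of all genes. The list had a median of -0.66, and 9 to 11 fell when 1 library was left out. Odc1, the first enzyme of polyamine synthesis and a long-known MYC target, was at 455, 444 and 411 TPM at 6 h and at 124, 94.1 and 128 TPM at 24 h (-1.92 ± 0.20, adjusted p = 3.96e-07). Gar1, a component of the RNA-guided pseudouridylation complex, went from 111, 113 and 125 TPM to 34.1, 13.7 and 45.9 TPM (-2.02 ± 0.37, adjusted p = 0.00034). Nop58 and Fbl, core proteins of the RNA-guided methylation complex, fell by 1.12 ± 0.21 (adjusted p = 0.000438) and 1.16 ± 0.26 (adjusted p = 0.00242).

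These genes were mostly above naive cells at both times, with a list median of 1.57 at 6 h and 0.8 at 24 h. Myc itself was at 97.3, 71.4 and 94.7 TPM at 6 h and at 61.6, 41.4 and 63.2 TPM at 24 h. The 2 times did not overlap, as for 5441 of all 12147 genes, and Myc was not called (-0.67 ± 0.34, adjusted p = 0.17). It was called after median-of-ratios rescaling (adjusted p = 0.00355), which also raised the list to 16 falls. Npm1, at 2934 to 3696 TPM at 6 h and 2153 to 2621 TPM at 24 h, was not called (-0.53 ± 0.22, adjusted p = 0.0892). The one riser, Nop2, was at most 0.785 TPM at 6 h and 1.52, 1.68 and 2.35 TPM at 24 h, and was not called without replicate 3 at 24 h (adjusted p = 0.102), without replicate 1 at 6 h (adjusted p = 0.0881) or without replicate 2 at 6 h (adjusted p = 0.0938). The E-box CACGTG, read the same on both strands, was in 4 of 21 RefSeq promoters of the 19 list genes matched (19.0%), in 20.0% of the 20 promoters of p53 target genes and in 7.15% of all promoters.

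Of 21 proteasome subunits, 10 fell and 1 rose, beside 8.17% and 16.1% of all genes. Their median was -0.63, with 7 to 9 falls when 1 library was left out. Psme2, a subunit of the PA28 activator, fell the most, from 1006, 913 and 962 TPM to 446, 406 and 450 TPM (-1.14 ± 0.14, adjusted p = 4.68e-06), and remained above naive libraries at 266, 176 and 183 TPM. The catalytic subunit Psmb5 fell by 0.86 ± 0.21 (adjusted p = 0.00513) and the core subunit Psma7 by 0.63 ± 0.10 (adjusted p = 6.57e-05). The riser was Psmb9, a subunit of the immunoproteasome that favours class I peptides, at 67.3, 65.5 and 70.2 TPM and then 109, 98.9 and 112 TPM (0.65 ± 0.14, adjusted p = 0.00168). Of 16 cytosolic chaperones and heat shock genes, 10 fell and 1 rose, beside the same shares of all genes. This list had a median of -0.64, with 8 falls whichever library was left out. Hspa8, the constitutive HSP70, was at 761, 642 and 510 TPM and then at 207, 178 and 237 TPM (-1.60 ± 0.22, adjusted p = 1.74e-05), below naive libraries at 385 to 634 TPM.

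Cct3, a subunit of the chaperonin that folds actin and tubulin, fell by 2.41 ± 0.39 (adjusted p = 8.78e-05) while Cct8, of the same complex, fell by 0.71 ± 0.19 (adjusted p = 0.00993). Hspa1a, an inducible HSP70, was at 404, 321 and 302 TPM in naive cells, at 3.69, 1.69 and 1.67 TPM at 6 h and below 1 TPM at 24 h (-1.42 ± 0.30, adjusted p = 0.0015). The one riser, Hspd1, a mitochondrial chaperonin, lost its call without any of the 6 libraries (adjusted p = 0.0643 to 0.114). In the endoplasmic reticulum list, 7 of 22 chaperone and unfolded protein response genes rose and 1 fell, beside 16.1% and 8.17% of all genes. Only 1 rise was left without replicate 3 at 24 h. Ero1lb, an oxidase that forms disulfide bonds, rose by 1.29 ± 0.26 (adjusted p = 0.00102), from 18.3, 14.2 and 14.5 TPM to 38.8, 32.3 and 49.2 TPM.

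**Figure D3:**
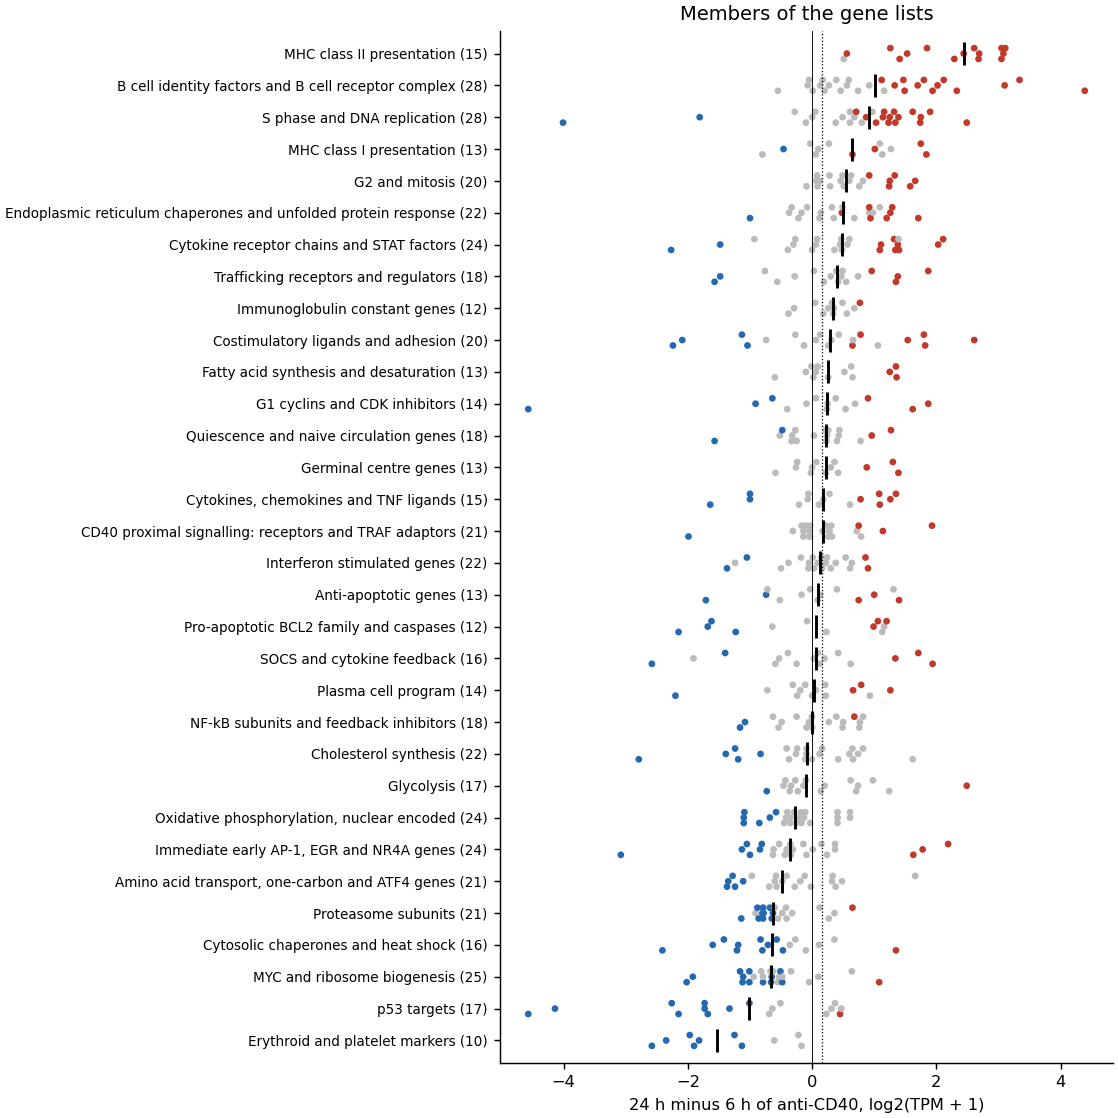
Change from 6 h to 24 h in log2(TPM + 1) of each measured member (points) of the gene lists, with called rises in red, called falls in blue and others in grey. Black bars are list medians, the dotted line is the median of all genes (0.153), and numbers in parentheses are genes measured. MHC class II presentation has the highest median (2.44), and erythroid and platelet markers the lowest (-1.53).

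Of 28 genes of S phase and DNA replication, 15 rose and 2 fell, beside 16.1% and 8.17% of all genes. Their median was 0.92, with 13 to 15 rises when 1 library was left out. Tk1, thymidine kinase, was at 3.59, 2.33 and 2.87 TPM at 6 h and at 21.4, 16.5 and 25.9 TPM at 24 h (2.49 ± 0.20, adjusted p = 1.85e-08). Naive libraries at 11.8, 7.94 and 8.61 TPM lay between them. Tyms, thymidylate synthase, rose by 1.75 ± 0.22 (adjusted p = 4.37e-06), and Ccne2, which encodes the G1/S cyclin E2, by 1.9 ± 0.29 (adjusted p = 5.84e-05). The replicative helicase is a ring of 6 MCM proteins. Mcm2 rose by 1.25 ± 0.32 (adjusted p = 0.00593) and Mcm7 by 1.62 ± 0.31 (adjusted p = 0.000648), while Mcm4, Mcm5 and Mcm6 were not called (0.80, 0.68 and 0.61).

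Mcm3 was 27.5, 23.9 and 19.5 TPM at 6 h and 0.988, 0.475 and 0.185 TPM at 24 h (-4.01 ± 0.60, adjusted p = 4.76e-05), below naive libraries at 12.5, 20.9 and 22.8 TPM. It was lower at 24 h in the other 3 cultures as well, at 6.79 to 10.7 TPM with IL-21 and 2.39 to 8.49 TPM with both cytokines. With IL-4 its 24 h libraries were split, at 14.7, 0.377 and 0.795 TPM. Whether the values near 0 are levels or failed estimates was not tested. Pole, the catalytic subunit of the leading-strand polymerase, was the other one that fell, from 3.24, 3.27 and 4.67 TPM to 0.0946, 0.5 and 0.462 TPM (-1.81 ± 0.41, adjusted p = 0.00253). Pcna, the sliding clamp, was not called, at 244, 226 and 204 TPM and 229, 230 and 238 TPM (0.05 ± 0.11, adjusted p = 0.769).

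Of 20 genes of G2 and mitosis, 6 rose and none fell, beside 16.1% and 8.17% of all genes. Their median was 0.55, with 5 to 8 rises when 1 library was left out. Seen from naive cells, the list median was -0.12 at 6 h and 0.45 at 24 h. Cdk1, the kinase that drives entry into mitosis, was at 6.91, 4.88 and 8.7 TPM at 6 h and at 23.1, 19.3 and 28.2 TPM at 24 h (1.66 ± 0.27, adjusted p = 8.95e-05). Every 24 h library lay above the naive libraries at 8.25, 7.44 and 13.9 TPM. Mki67, which encodes the proliferation marker Ki-67, went from 2.75, 3.02 and 4.23 TPM to 12.6, 8.72 and 15 TPM (1.58 ± 0.35, adjusted p = 0.00184). Its naive libraries, at 7.73, 7.21 and 10.8 TPM, lay above the 6 h ones and overlapped the 24 h ones. Ccna2, which encodes cyclin A2, rose by 1.25 ± 0.19 (adjusted p = 4.25e-05), Bub1, a spindle checkpoint kinase, by 1.33 ± 0.24 (adjusted p = 0.000314) and Kif11, a spindle motor, by 1.24 ± 0.21 (adjusted p = 0.000166). Top2a, which untangles DNA, rose by 0.92 ± 0.25 (adjusted p = 0.011), a call lost without replicate 3 at 24 h (adjusted p = 0.0729). Plk1 (adjusted p = 0.68), Aurka (adjusted p = 0.92) and Ccnb1 (adjusted p = 0.929), which act from late G2 on, were not called.

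Promoters of G2 and mitosis genes are known for paired CCAAT boxes and a cell cycle homology region with the letters TTTGAA, and 2 of them are shown to set beside the class II promoters. They are drawn in the same way from RefSeq (GRCm38.p6), at chr10:69352913-69353062 for Cdk1 and chr11:99024190-99024339 for Top2a, both on the minus strand. Capitals mark CCAAT or ATTGG and TTTGAA or its reverse complement TTCAAA.
Cdk1: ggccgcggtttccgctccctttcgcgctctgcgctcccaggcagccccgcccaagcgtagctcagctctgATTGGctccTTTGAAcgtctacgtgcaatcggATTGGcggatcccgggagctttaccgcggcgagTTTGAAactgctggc
Top2a: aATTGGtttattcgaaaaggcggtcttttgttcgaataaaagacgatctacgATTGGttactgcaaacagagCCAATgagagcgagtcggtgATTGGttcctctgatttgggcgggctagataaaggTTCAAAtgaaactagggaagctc
Cdk1 held CCAAT 80 and 48 bases and TTTGAA 71 and 15 bases before the start. Top2a held CCAAT 149, 98, 78 and 58 bases and TTTGAA 23 bases before it. Over the 15 list genes matched, CCAAT was in 13 of 15 promoters (86.7%) and TTTGAA in 10 (66.7%), against 37.4% and 17.9% of all promoters, both strands read and neither motif containing the other. CCAAT was in 55.6% of the 27 promoters matched for S phase genes and in 25.9% of the 27 matched for B cell identity genes. For lists that mostly fell, it was in 60.0% of 20 promoters of p53 targets and 23.8% of 21 of MYC and ribosome biogenesis genes.

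Entry into the cycle showed other changes. Of 14 G1 cyclins and inhibitors of cyclin-dependent kinases, 3 rose and 3 fell, beside 16.1% and 8.17% of all genes. Leaving out 1 library gave 1 to 3 rises and 2 to 3 falls. The lowest count of rises was without replicate 1 or 3 at 24 h. Cdk4, the kinase of the D cyclins, fell by 0.91 ± 0.18 (adjusted p = 0.000648), from 271, 231 and 252 TPM to 151, 114 and 136 TPM. Ccnd2, which encodes cyclin D2, was at 2.12, 6.04 and 9.69 TPM and then at 25.8, 15.7 and 24.8 TPM (1.87 ± 0.59, adjusted p = 0.0236), though leaving out replicate 1 or 3 at 24 h or replicate 1 at 6 h ended the call (adjusted p = 0.0742, 0.0764 and 0.131). Among quiescence genes, Klf2, which keeps lymphocytes in a resting, circulating state, was not called (-0.33 ± 0.32, adjusted p = 0.5). It was at 26.7 to 34.9 TPM at 6 h and 22.5 to 27.2 TPM at 24 h, against 401 to 764 TPM in naive cells. S1pr1, the receptor for exit from lymphoid tissue, rose slightly (0.96 ± 0.27, adjusted p = 0.0123) but at 7.19 to 8.87 TPM was far below its naive 89.9 to 123 TPM, and the call was lost without replicate 3 at 24 h or at 6 h (adjusted p = 0.0537 and 0.0714).

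Of 21 receptors and TRAF adaptors of the CD40 pathway, 3 rose and 1 fell, with a median of 0.17, near the 0.153 of all genes, of which 16.1% rose and 8.17% fell. Cd40 was at 133, 106 and 79.2 TPM at 6 h and 128, 112 and 152 TPM at 24 h (0.32 ± 0.21, adjusted p = 0.305). Traf3, the adaptor that holds non-canonical NF-kB in check, was at 2.39, 3.91 and 3 TPM and then at 15, 9.69 and 20.4 TPM (1.93 ± 0.40, adjusted p = 0.00105). Naive cells held 1.92 to 2.84 TPM. Tnfrsf13b, which encodes the BAFF and APRIL receptor TACI, rose by 1.14 ± 0.26 (adjusted p = 0.00292) to about its naive level. Tnfrsf9, which encodes 4-1BB, was at 4.75, 5.27 and 3.29 TPM at 6 h and below 1 TPM in every naive and 24 h library (-1.99 ± 0.26, adjusted p = 1.07e-05). Traf1, an adaptor induced by NF-kB, was not called, at 71.3, 54.9 and 66.2 TPM and 56.6, 50.7 and 73.9 TPM (adjusted p = 0.853).

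Of 18 NF-kB subunits and feedback inhibitors, 1 rose and 2 fell, with 0 to 1 rises and 1 to 3 falls when 1 library was left out. Over all genes 16.1% rose and 8.17% fell. Rela and Nfkb2 changed by -0.09 and 0.49 (adjusted p = 0.889 and 0.369), and Relb was not called (adjusted p = 1). Bcl3, a nuclear cofactor of NF-kB, fell by 1.16 ± 0.35 (adjusted p = 0.0182), a call lost without replicate 2 at 24 h or replicate 3 at 6 h. Nfkbid, another such cofactor, fell by 1.08 ± 0.27 (adjusted p = 0.00534). Nfkbia, which encodes the inhibitor IκBα, was at 724, 658 and 749 TPM and then at 460, 398 and 521 TPM. It was not called (-0.63 ± 0.23, adjusted p = 0.0507). It was called with median-of-ratios rescaling (adjusted p = 6.02e-05), which brought the list to 3 rises and 5 falls. Tnfaip3, which encodes the inhibitor A20, Icam1 and Irf4 were not called (adjusted p = 1, 0.356 and 0.641). The 6 h means of Irf4 and Tnfaip3 were 1.99 and 1.75 (log2) above naive cells, and the 24 h means 1.75 and 1.74 above.

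Of 24 immediate early AP-1, EGR and NR4A genes, 3 rose and 6 fell, beside 16.1% and 8.17% of all genes. Egr1, a zinc finger factor of antigen receptor signals, was at 2.88, 3.44 and 3.73 TPM at 6 h and at 13.9, 10.6 and 13.1 TPM at 24 h (1.63 ± 0.29, adjusted p = 0.000306). Its naive level was higher still, at 61.7, 47.3 and 45.2 TPM. Egr3 rose by 1.78 ± 0.32 (adjusted p = 0.000326), and Dusp6, a cytoplasmic phosphatase of ERK, by 2.19 ± 0.27 (adjusted p = 3.98e-06), in the opposite direction to Dusp5. Jun and Nr4a1 fell by 1.05 ± 0.29 (adjusted p = 0.0114) and 1.13 ± 0.28 (adjusted p = 0.00538). Leaving out 1 library left 4 or 5 of the falls, and median-of-ratios rescaling gave 10.

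Costimulatory and surface molecules divided by gene. Of 20 ligands and adhesion molecules, 6 rose and 4 fell, beside 16.1% and 8.17% of all genes. Cd86, a ligand of CD28 on T cells, was at 11.8, 18.8 and 12.8 TPM at 6 h and at 1.77, 2.91 and 3.15 TPM at 24 h (-2.09 ± 0.21, adjusted p = 3.88e-07), also below naive libraries at 11, 10.2 and 11.2 TPM. Its partner ligand Cd80 was not called, at 14.8, 10.1 and 9.91 TPM and 10.6, 9.35 and 11.2 TPM (-0.13 ± 0.21, adjusted p = 0.703), against 0.929 to 1.64 TPM in naive cells. Icosl, the ligand of ICOS on follicular helper T cells, was at 17.4, 9 and 10.1 TPM and then at 66.9, 66.4 and 101 TPM (2.61 ± 0.37, adjusted p = 2.04e-05), with naive libraries at 44.8 to 99.5 TPM. Tnfsf4, which encodes OX40 ligand, was at 10.4, 7.07 and 7.49 TPM at 6 h and 0.985, 0.567 and 1.4 TPM at 24 h (-2.24 ± 0.22, adjusted p = 2.43e-07).

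The activation markers Cd83 and Cd69 fell from 6 h to 24 h. Cd83, which stabilises class II and CD86 at the surface, was at 937, 874 and 729 TPM and then at 426, 378 and 425 TPM (-1.04 ± 0.14, adjusted p = 9.58e-06), still above naive libraries at 142 to 192 TPM. Cd69, which holds lymphocytes in tissue, went from 124, 147 and 119 TPM to 58.9, 60.2 and 57.1 TPM (-1.13 ± 0.21, adjusted p = 0.000516), below naive libraries at 172 to 279 TPM. Fas, a death receptor raised by CD40, was not called (0.22 ± 0.22, adjusted p = 0.516) at 15.5 to 25.2 TPM over both times. Fcer2a, the low-affinity IgE receptor CD23, was at 765, 325 and 240 TPM and 878, 748 and 1021 TPM, and was not called (1.16 ± 0.58, adjusted p = 0.155).

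Among 18 trafficking genes, 4 rose and 2 fell, beside 16.1% and 8.17% of all genes. Ccr6, the receptor for CCL20, was at 73.7, 40.7 and 37.9 TPM and then at 182, 138 and 232 TPM (1.87 ± 0.39, adjusted p = 0.00133), while naive cells held 15.5 to 47.7 TPM. Itga4, the α4 integrin chain, rose by 1.35 ± 0.28 (adjusted p = 0.00134). Cxcr4, the receptor for CXCL12, fell by 1.48 ± 0.43 (adjusted p = 0.0146), a call lost without replicate 2 at 24 h or replicate 1 at 6 h. Ccr7, the receptor that draws B cells to the T cell zone, was at 235, 100 and 76.4 TPM at 6 h and at 41.5, 35.3 and 45.1 TPM at 24 h (-1.57 ± 0.51, adjusted p = 0.0293). Without replicate 1 at 6 h it was not called (-1.1, adjusted p = 0.167), nor without any single 24 h library (adjusted p = 0.0606 to 0.0802).

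Of 15 cytokines, chemokines and TNF ligands, 5 rose and 3 fell, with 3 to 5 rises and 1 to 3 falls when 1 library was left out. Without replicate 3 at 24 h they were 3 and 1, and without replicate 2 at 6 h 3 and 2. Over all genes 16.1% rose and 8.17% fell. Ccl22, which draws CCR4-bearing T cells, kept climbing, from 1.48, 1.51 and 1.28 TPM in naive cells to 21.8, 18.4 and 22.5 TPM at 6 h and 69, 41.3 and 57.3 TPM at 24 h (1.35 ± 0.36, adjusted p = 0.00801). Il12a, which encodes the p35 chain of IL-12 and IL-35, rose by 1.26 ± 0.24 (adjusted p = 0.000539), from 20.9, 11.6 and 18.8 TPM to 43.2, 35.7 and 45.6 TPM. Ccl4 fell by 1.64 ± 0.33 (adjusted p = 0.000987), to 2.29, 1.46 and 3.05 TPM.

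Of 24 cytokine receptor chains and STAT factors, 8 rose and 2 fell, beside 16.1% and 8.17% of all genes. There were 5 to 9 rises when 1 library was left out. Il2ra, the α chain of the IL-2 receptor, was at 55.7, 42.1 and 42.1 TPM at 6 h and at 9.52, 7.76 and 9.26 TPM at 24 h (-2.27 ± 0.22, adjusted p = 2.15e-07). Naive libraries were all under 1 TPM, so Il2ra came down without returning to its start. Stat4, which transmits IL-12 signals, was at 119, 116 and 104 TPM and then at 40.3, 37.4 and 41.6 TPM (-1.48 ± 0.16, adjusted p = 6.56e-07), back at its naive 30.4 to 41.9 TPM. Il9r, the IL-9 receptor, rose from 52.5, 35 and 38.3 TPM to 185, 146 and 222 TPM (2.11 ± 0.33, adjusted p = 6.31e-05). Il4ra was called higher (1.34 ± 0.45, adjusted p = 0.034), but 4 single libraries each decided that call (adjusted p = 0.0762 to 0.166 without them). Il21r was not called (0.60 ± 0.36, adjusted p = 0.237).

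Of 16 feedback regulators of cytokine signals, 3 rose and 2 fell, beside 16.1% and 8.17% of all genes. Pim1, a survival kinase induced by STAT factors, was at 162, 164 and 197 TPM and then at 25.6, 26.2 and 33.3 TPM (-2.58 ± 0.29, adjusted p = 1.2e-06). Socs3, the inhibitor of STAT3 signals, fell by 1.40 ± 0.27 (adjusted p = 0.00069), to 1.14, 0.551 and 1.77 TPM. The phosphatases rose: Ptpn6, which encodes SHP-1, from 177, 120 and 165 TPM to 561, 471 and 772 TPM (1.94 ± 0.36, adjusted p = 0.000376), Ptpn1 by 1.71 ± 0.33 (adjusted p = 0.000613) and Ptpn22 by 1.34 ± 0.26 (adjusted p = 0.000732). SHP-1 is recruited by CD22.

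Of 13 germinal centre genes, 3 rose and none fell, and 1 rose when replicate 2 at 6 h was left out. Over all genes 24.3% were called. Bcl6, the master factor of that state, was not called, at 25.3, 24.9 and 31.1 TPM and 20.2, 20.1 and 27.8 TPM (-0.26 ± 0.25, adjusted p = 0.509). Mef2c, a factor needed for B cell proliferation, rose by 1.30 ± 0.34 (adjusted p = 0.00696). Of 14 genes of the plasma cell program, 3 rose and 1 fell, beside 16.1% and 8.17% of all genes. Prdm1, which encodes Blimp-1, was below 1 TPM in all 9 naive and anti-CD40 libraries. Jchain, which joins secreted IgM, was at 33.8, 40.1 and 64.6 TPM and then at 7.32, 9.08 and 10.4 TPM (-2.20 ± 0.42, adjusted p = 0.000555), against 93.9 to 195 TPM in naive cells. Xbp1, a factor of secretion, was at 2.06, 1.75 and 2.79 TPM and then at 4.57, 5.56 and 10.9 TPM (1.26 ± 0.37, adjusted p = 0.015), a call lost without replicate 3 at 24 h (adjusted p = 0.108) or replicate 2 at 6 h (adjusted p = 0.0623).

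Metabolic lists moved in part, and their counts are to be read beside 16.1% of all genes higher and 8.17% lower. Of 24 nuclear genes of oxidative phosphorylation, 6 fell and none rose. Uqcrq, of complex III, went from 425, 409 and 399 TPM to 213, 188 and 178 TPM (-1.09 ± 0.12, adjusted p = 1.11e-06), and Atp5g1, of the ATP synthase, fell by 1.10 ± 0.16 (adjusted p = 2.86e-05). Of 13 mitochondrially encoded genes only mt-Nd6 was called (1.44 ± 0.37, adjusted p = 0.00723). It lies on the strand opposite to most of them, and without strand information its reads cannot be told apart from antisense ones. Of 21 genes of amino acid transport, one-carbon metabolism and the ATF4 response, 5 fell and none rose. Atf4 itself, the factor of amino acid stress, was at 252, 214 and 231 TPM and then at 109, 75.8 and 113 TPM (-1.24 ± 0.18, adjusted p = 2.74e-05), below naive libraries at 147 to 243 TPM. Shmt2, the mitochondrial enzyme that feeds one-carbon units, fell by 1.28 ± 0.35 (adjusted p = 0.0104).

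In cholesterol synthesis 5 of 22 genes fell and none rose, beside 8.17% and 16.1% of all genes. Idi1, an isomerase of the isoprenoid step, was at 159, 175 and 169 TPM at 6 h and at 66.2, 58.6 and 65.5 TPM at 24 h (-1.39 ± 0.16, adjusted p = 1.7e-06), above naive libraries at 13.9 to 22.3 TPM. Msmo1, which removes methyl groups from sterols, fell the most (-2.79 ± 0.44, adjusted p = 7.64e-05), to 4.43, 2.86 and 5.04 TPM. In fatty acid synthesis 3 of 13 genes rose, beside 16.1% of all genes. Scd1 was among them (1.25 ± 0.38, adjusted p = 0.0205), but only 0 to 2 rises were called when 1 library was left out. In glycolysis 1 of 17 genes rose and 1 fell, beside 16.1% and 8.17% of all genes. Hk1, a hexokinase, rose from 0.043, 1.47 and 3.18 TPM to 9.52, 9.1 and 17 TPM (2.49 ± 0.60, adjusted p = 0.00407), and Slc16a1, a lactate transporter, fell by 0.73 ± 0.18 (adjusted p = 0.00576). Gapdh was not called (adjusted p = 0.747). Of 22 interferon stimulated genes 2 rose and 2 fell, beside the same shares of all genes. Isg15 fell by 1.37 ± 0.26 (adjusted p = 0.000548), and Zbp1, a sensor of left-handed nucleic acid, rose by 0.90 ± 0.21 (adjusted p = 0.00349).

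Markers of other cells that a spleen preparation can hold were low and, for red cells and platelets, declining. Of 10 erythroid and platelet markers, 7 fell and none rose, beside 8.17% and 16.1% of all genes. The list summed to 1021 to 1804 TPM in naive libraries, 156 to 192 TPM at 6 h and 35.1 to 40.7 TPM at 24 h. Hbb-bs, a β-globin gene, went from 63.8, 65.7 and 82.9 TPM to 16.8, 22.6 and 13.3 TPM (-1.97 ± 0.39, adjusted p = 0.000767), and Ppbp, a platelet chemokine, fell by 1.9. The α-globin genes Hba-a1 and Hba-a2 fell by 2.35 and 2.58, but share most of their sequence. T cell markers summed to 9.94 to 13.3 TPM at 6 h and 17.6 to 31.3 TPM at 24 h, most of it Lck, a kinase that some B cells also express (8.93 and 21.2 TPM on average). Lck was called higher (1.14 ± 0.37, adjusted p = 0.0294), but not without any of 4 single libraries (adjusted p = 0.066 to 0.14). The defining T cell genes Cd3d, Cd3e and Cd3g averaged at most 0.505 TPM at either time and Bcl11b was listed at 0 in all 6 libraries. None of the 12 neutrophil markers reached the filter. The part of other cells in the changes above was not tested.

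The naive libraries allowed the called changes of at least 2-fold to be divided by course. A time was counted as apart from naive where its mean differed by more than 1 on the log2 scale. The largest class, 444 genes, was low at 6 h and back near naive at 24 h, with medians of -1.57 and -0.03. It included Ciita, H2-Ab1, H2-Eb1, H2-Oa, Cd74, March1, Cd22, Fcmr and Ebf1. A further 387 genes were near naive at 6 h and higher at 24 h, among them Btk, Rp2, Traf3, Il9r, Ccr6, Mcm7, Tyms, Ccne2 and Cdk1. A class of 155 genes was high at 6 h and back near naive at 24 h, with medians of 1.59 and 0.26. It included Cdkn1a, Bax, Odc1, Pim1, Stat4 and Bcl2l11.

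A late fall, from near naive at 6 h to below it at 24 h, was seen in 87 genes, among them Mcm3, Rdx, Ctnnb1, Hspa8 and Cd86. Another 21 genes were below naive at 6 h and lower again at 24 h, including Jchain, Plk2, Hspa1a, Socs3 and Cxcr4. Another 22 genes were above naive at 6 h and higher again at 24 h, and 47 were without naive replicate 1. Ms4a6c, of the CD20 family, was one of them, at 6.47, 8.33 and 11.6 TPM in naive cells, 39.5, 37.6 and 37.1 TPM at 6 h and 198, 207 and 180 TPM at 24 h (2.32 ± 0.20, adjusted p = 2.55e-08). In 25 genes a rise at 6 h had waned in part by 24 h (Phlda3, Il2ra, Bcl2l1, Cd83, Idi1), and in 54 a fall had (Cr2, Egr1, Dusp6, H2-Aa). In 30 genes the mean went from below naive to above it (Cfp, Mxd4 and Tk1 among them). That count was 22 without naive replicate 1, and 204 where a difference from naive of 1.5-fold was enough, so it depended on the limit chosen. Without naive replicate 1, whose genes of the first class exceeded those of the other naive libraries by a median of 0.62, that class held 357 genes and the class with a late rise 523. The antibody and the culture itself cannot be told apart in any difference from naive cells.

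**Figure D4:**
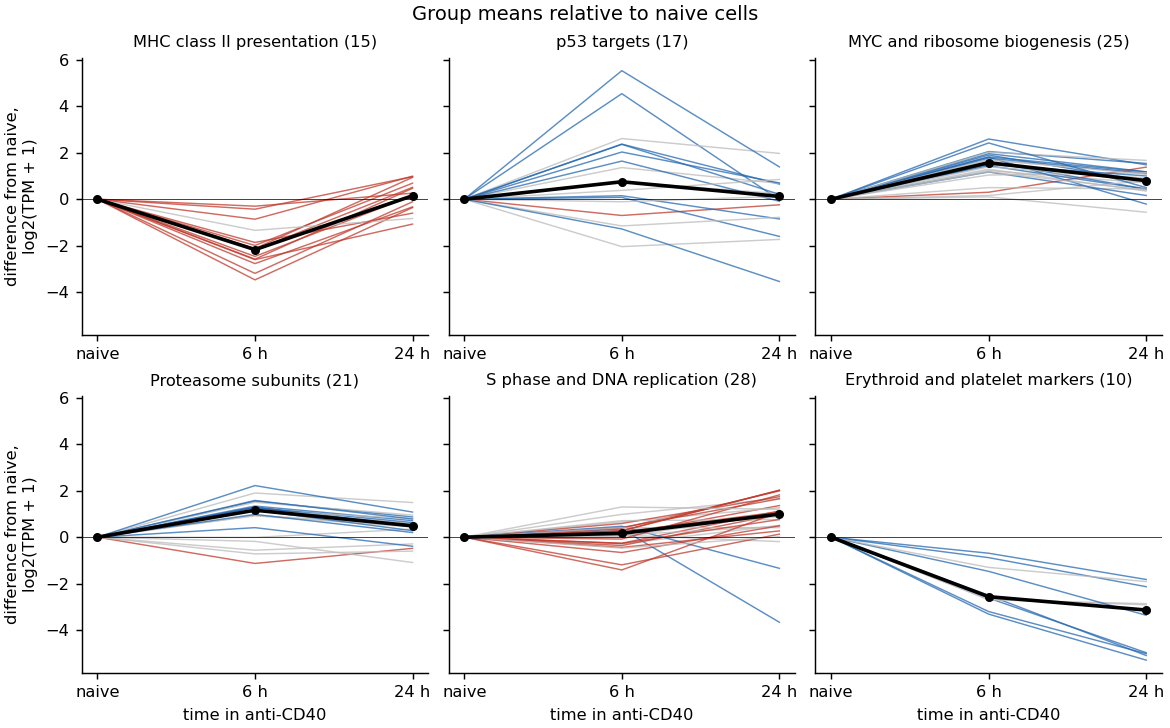
Difference of the 6 h and 24 h group means from the naive mean, in log2(TPM + 1), for each measured member of 6 gene lists, with genes called higher from 6 h to 24 h in red, called lower in blue, others in grey and the list median in black. Class II genes dip at 6 h and return (medians -2.17 and 0.15), MYC and ribosome biogenesis genes peak at 6 h (1.57 and 0.8), and erythroid and platelet markers keep falling.

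The cultures with cytokines gave other 24 h and 6 h libraries in which the same time change could be read. Of the 155 genes with a peak at 6 h, 83 (53.5%) also fell in all 3 cytokine conditions, as did 50 of the 87 late falls (57.5%). Of all genes tested, 3.94% fell in all 3. Of the 444 genes with a dip at 6 h, 128 (28.8%) also rose in all 3, against 5.8% of all genes. Singly, 372 of the 444 rose with IL-21, 322 with both cytokines and 137 with IL-4, where 26.2%, 20.8% and 8.82% of all genes rose, and 107 of the 444 rose with IL-4 when its replicate 1 at 24 h was left out. That library stood apart from its partners, with a median-of-ratios size factor of 1.116 against 0.701 and 0.601.

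Some late changes were common to all 4 cultures. Near naive at 6 h and at least 1 (log2) away at 24 h, called in the same direction in each culture, were 56 genes that rose and 25 that fell. Replication and mitosis genes were among the risers: Ccne2, Mcm7, Mcm10, Pola1, Gins2, Chek1, Hells, Cdk1 and Ccna2. Rp2 was another, at 47.1, 30.8 and 44.1 TPM at 24 h with anti-CD40 alone and 28.5 to 42 TPM with IL-4, 8.77 to 26.2 TPM with IL-21 and 17.6 to 20.5 TPM with both, and at most 2.55 TPM in any naive or 6 h library. Srpr, a subunit of the receptor for the signal recognition particle, was listed at 0 in all 3 libraries of anti-CD40 alone at 6 h and was at 11.1, 6.46 and 19.5 TPM at 24 h. A listed 0 can be a failed estimate, which was not tested for Srpr. Among those that fell were Ctnnb1, Eif2b5, Rdx, Upf2, Smg6 and Ccl4. Ctnnb1, which encodes β-catenin, was at 86.5, 109 and 95.7 TPM at 6 h and at 12.5, 10.1 and 20 TPM at 24 h (-2.74 ± 0.39, adjusted p = 2.24e-05), with naive libraries at 100, 115 and 143 TPM. Eif2b5, a subunit of the exchange factor for eIF2, stayed at 9.64 TPM or more in every naive and 6 h library and at 3.18 TPM or less in every 24 h library of the 9 groups.

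Where the cytokines altered the time change, it was tested as a difference of differences. The 3 tests share the 6 libraries of anti-CD40 alone, so they are given side by side. The change from 6 h to 24 h differed from that with anti-CD40 alone for 873 genes with IL-4 (7.19%), for 539 with IL-21 (4.44%) and for 789 with both (6.5%). The IL-4 count rested on single libraries. It was 3887 without replicate 1 of that group at 24 h, 405 and 416 without its replicates 2 and 3, and 478 and 496 without replicates 1 and 2 of IL-4 at 6 h. Without replicates 1 and 3 of anti-CD40 alone at 24 h it was 543 and 411, and 459 without replicate 2 at 6 h. Over all genes the IL-4 difference had a median of -0.321, and -0.492 without replicate 1 at 24 h. The IL-21 count ranged from 377 to 537 and the count for both cytokines from 558 to 637 when any 1 library was left out.

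Some class II genes showed an IL-4 difference. With IL-4, Ciita changed by 0.88 against 3.05 with anti-CD40 alone (difference -2.17, adjusted p = 0.00573, and -2.65 without the library that stood apart, adjusted p = 6.69e-05). Rfx5 changed by -0.38 against 1.41 (difference -1.79, adjusted p = 0.0095), and H2-DMb2 by 1 against 3.05 (difference -2.05, adjusted p = 0.0394). Of the 15 class II genes, 4 had a lower change with IL-4 by this test (5 without that library), none with IL-21 and 1 with both cytokines. Among B cell identity genes 8 of 28 had a lower change with IL-4 (19 without that library), none with IL-21 and 3 with both. Of all 12147 genes, 616 had a lower change with IL-4, and 3243 without that library, so a lower change was not confined to these lists. With IL-21 and with both cytokines, 4.44% and 6.5% of all genes differed in either direction.

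Proliferation genes differed in the other direction. Of 20 genes of G2 and mitosis, the change was higher for 4 with IL-4, 15 with IL-21 and 12 with both, and lower for none. For comparison, 7.19%, 4.44% and 6.5% of all genes differed in either direction. With IL-4, 257 of all 12147 genes had a higher change. Cdk1 rose by 1.66 with anti-CD40 alone and by more with each addition (differences 1.55, 1.61 and 1.93, adjusted p = 0.0149, 0.013 and 0.0023). Mki67 at 24 h was at 8.72 to 15 TPM with anti-CD40 alone and at 38.9 to 92.4 TPM with IL-21 (difference 1.94, adjusted p = 0.0223). Of 28 S phase genes, 6, 8 and 6 had a larger change with IL-4, IL-21 and both, Pcna among them in each case (1.13, 0.98 and 0.83, adjusted p = 0.000156, 0.000291 and 0.00141). Idi1, which fell with anti-CD40 alone, had a higher change in each cytokine culture (differences 1.64, 1.08 and 1.23, adjusted p = 0.000183, 0.00555 and 0.00131). With IL-4 it changed by 0.25, and by 0.41 without replicate 1 of IL-4 at 24 h (adjusted p = 0.0409).

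Single genes separated anti-CD40 alone from every cytokine culture. Gpr34, a receptor for lysophosphatidylserine, rose from 0.759, 1.41 and 1.09 TPM to 6.83, 6.68 and 5.59 TPM with anti-CD40 alone (1.83 ± 0.15, adjusted p = 1.76e-08). It was at most 0.514 TPM in all 18 libraries with a cytokine (differences -1.74, -1.49 and -1.87, adjusted p = 5.38e-05, 9.15e-05 and 3.32e-06). Nxpe2 at 24 h was at 25.3, 19.4 and 33.6 TPM with anti-CD40 alone, 3.03 to 6.21 TPM with IL-4, 2.48 to 4.3 TPM with IL-21 and 0.399 to 0.936 TPM with both, and its time change was smaller in each (differences -1.60, -2.08 and -2.99, adjusted p = 0.0114, 0.00119 and 1.51e-05). Dusp6 also rose less with each (adjusted p = 0.00715, 0.0211 and 0.000829), and so did Cd36, a scavenger receptor (adjusted p = 0.0107, 0.00218 and 0.000732), which went from 24.4, 23.5 and 14.8 TPM to 160, 165 and 164 TPM with anti-CD40 alone.

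Cr2 and the costimulatory ligands gave other patterns. Cr2 rose with anti-CD40 alone, changed by -2.32 with IL-4 and -1.29 with both cytokines, and at 24 h was at 116 to 171, 3.76 to 12.8 and 1.49 to 3.29 TPM in these groups. The IL-21 difference for Cr2 was not called, and its 24 h libraries with IL-21 held 20.2 to 30.9 TPM. Cd86 at 24 h was at 1.77 to 3.15 TPM with anti-CD40 alone, 4.31 to 6.52 TPM with IL-4, 23.5 to 38.8 TPM with IL-21 and 15.3 to 16.4 TPM with both. In the same order, its 6 h libraries held 11.8 to 18.8, 52.8 to 62.7, 31 to 49.4 and 47.8 to 59.6 TPM. From these unlike 6 h levels, the fall of Cd86 was larger with IL-4 (difference -1.05, adjusted p = 0.0377) and smaller with IL-21 (difference 1.72, adjusted p = 0.00109). Cd80 had no called change with anti-CD40 alone and was at 9.35 to 11.2 TPM at 24 h, against 0.427 to 1.91 TPM in the 9 cytokine libraries of that time. Il2ra fell further with IL-4 and with both (differences -1.75 and -1.47, adjusted p = 0.00192 and 0.00486).

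**Figure D5:**
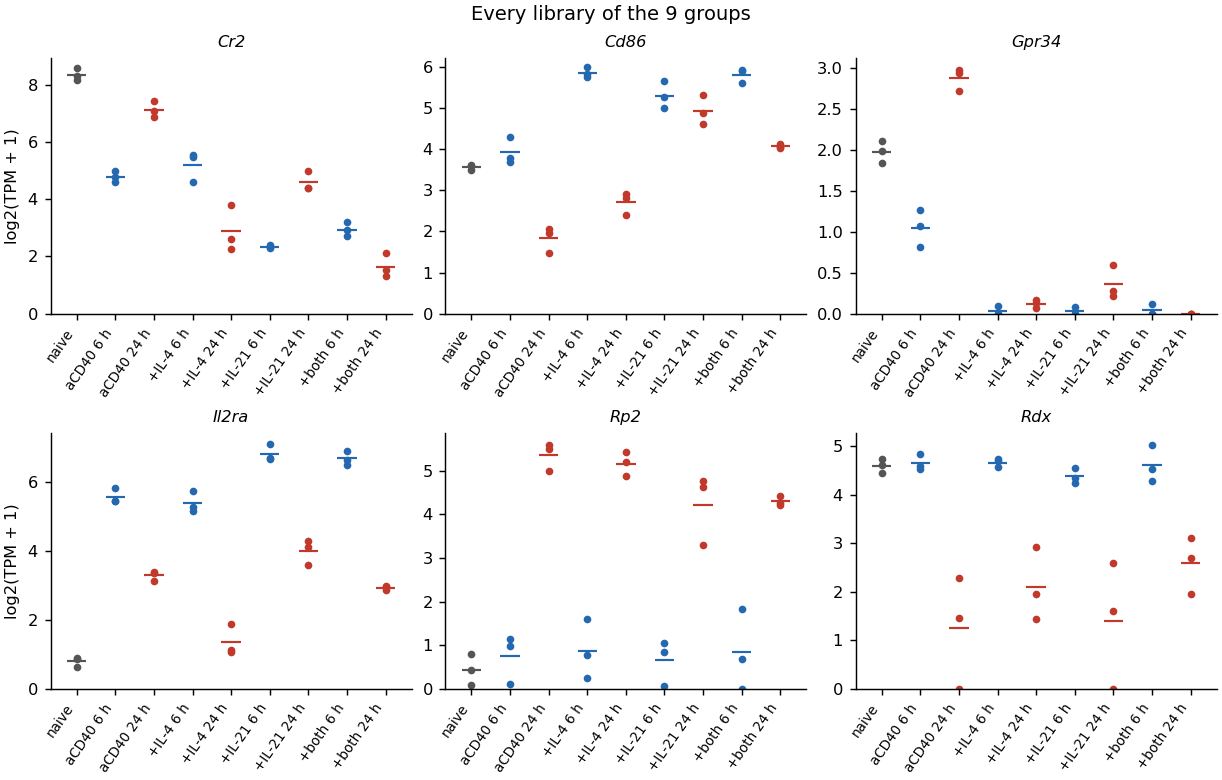
Level of 6 genes as log2(TPM + 1) in every library of the 9 groups, naive in grey, 6 h in blue and 24 h in red, with bars at group means. Rp2 rises and Rdx falls from 6 h to 24 h in all 4 cultures, whereas Gpr34 is above 1 TPM at 24 h with anti-CD40 alone and at or below 0.514 TPM with any cytokine.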

How the data were processed

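Polyadenylated RNA of 27 libraries in 9 groups of 3 was used. The deposited table gives the authors' TPM for 35604 genes and no read counts. The submitters' processing notes name Salmon 1.9.0 and the builds GRCm38 and mm10. Symbols and positions came from GENCODE M21, which named 35301. Values were used as listed, as log2(TPM + 1), which understates changes of low genes. The 12147 genes (10583 protein coding) that reached 1 TPM in 3 or more libraries were fitted with limma 3.58.1 in R 4.3.3, with 1 mean per group, a variance trend and 18 residual degrees of freedom. P values were adjusted over all genes tested. Differences between time changes were interaction contrasts of that fit. Tables and figures were made with Python 3.11.15, pandas 2.3.3 and matplotlib 3.10.9. The code of the fit was also run on simulated data, with independent normal noise and far fewer changed genes than were called here. That run did not cover the scaling or libraries that stand apart.

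Genes are named by a rule: the 10 largest rises and falls with at least 5 TPM and no overlap, a panel of activation and fate genes, and the leading called members of each list, course class and difference. By that rule 190 were named, and 74 more were chosen after their values were seen. The comparison, its members and all gene lists were chosen with earlier results of these data known. Lists are described by counts and medians only. Alternatives were another pseudocount (0.1), filter (5 TPM or none), scaling, transcript set and variance model, the 6 libraries alone, a replicate block and leaving out single libraries. Leaving out single libraries for the differences between time changes was added after seeing the data. Promoters were read from RefSeq (GRCm38.p6), 32851 for 27025 symbols. Some single genes are not reported here.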

Additional observations from a re-analysis of the deposited data

Results flagged for a closer look

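The genes below are singled out because the change from 6 h to 24 h with a cytokine differed from that with anti-CD40 alone, by the interaction term of the limma fit. Each value is a difference of log2 changes, with n = 3 libraries in each of 4 groups and a p adjusted over all genes. They are the largest such differences and those of the panel genes.

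With IL-4, Cr2 changed by -2.32 instead of 2.33 (difference -4.66, adjusted p = 2.83e-06). Itgb3, an integrin chain, and Trim7 also rose with anti-CD40 alone and not with IL-4 (differences -3.44 and -3.34, adjusted p = 0.000727 and 0.000434). The differences of Bcl6 (-2.01, adjusted p = 0.00178), Egr1 (-2.23, adjusted p = 0.00265), Traf1 (-1.95, adjusted p = 0.00632), Nfkbia (-1.49, adjusted p = 0.00879), Cd80 (-1.32, adjusted p = 0.0106) and Cd86 (-1.05, adjusted p = 0.0377) were of the same sign. Socs2, a STAT5 and STAT6 target, went the opposite way (4.35, adjusted p = 0.000434): at 24 h it was at 38.1 to 59.2 TPM with IL-4 and 1.44 to 3.24 TPM with anti-CD40 alone. Tmem176b (3.26, adjusted p = 0.00159) and Thy1 (2.88, adjusted p = 0.00141) also rose more with IL-4. Without replicate 1 of IL-4 at 24 h, which stood apart, these 12 genes kept their sign and their call, with differences from -5.11 (Cr2) to 4.4 (Socs2) and adjusted p of at most 0.0264.

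With IL-21, Marcks, a substrate of protein kinase C, changed by -3.99 instead of -0.33 (difference -3.65, adjusted p = 2.29e-07). Epb41l4b changed by -3.86 with IL-21 and by 0.02 with anti-CD40 alone (difference -3.88, adjusted p = 2.75e-07). Cd36 rose by 2.93 with anti-CD40 alone and changed by -0.06 with IL-21 (difference -2.99, adjusted p = 0.00218). Serpinb7 fell with anti-CD40 alone (-1.08) and rose with IL-21 (difference 3.47, adjusted p = 2.6e-08). Pltp, a phospholipid transfer protein, and Rflnb were near 0 TPM at both times with anti-CD40 alone and rose with IL-21 (differences 3.89 and 3.67, adjusted p = 4.97e-06 and 4.39e-06). Among panel genes, Cd80 (-1.69, adjusted p = 0.00125) and Ccl22 (-1.84, adjusted p = 0.038) had a lower change, and Cd86 (1.72, adjusted p = 0.00109), Bcl2l1 (1.72, adjusted p = 0.0241), Mki67 (1.94, adjusted p = 0.0223) and Klf2 (1.58, adjusted p = 0.0491) a higher one.

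With both cytokines, S100a6 and Slpi, a protease inhibitor, fell with anti-CD40 alone (-0.80 and -0.96) and rose with the cytokines (differences 5.36 and 5.27, adjusted p = 2.7e-09 and 5.36e-08). The falls with anti-CD40 alone were not called when some single libraries were left out. Pltp again rose (4.67, adjusted p = 2.17e-07). Epb41l4b (-4.28, adjusted p = 2.78e-08), Cr2 (-3.62, adjusted p = 1.16e-05) and Trim7 (-3.59, adjusted p = 6.67e-05) had the largest negative differences. Cd69 (-1.74, adjusted p = 0.00077), Egr1 (-1.44, adjusted p = 0.0384), Cd80 (-1.22, adjusted p = 0.0143) and Fas (-1.08, adjusted p = 0.0419) had a lower change and Klf2 (1.56, adjusted p = 0.0407) a higher one.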

How the results depend on the processing

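The 2950 called genes became 2512 to 3730 under the other settings that kept all 6 libraries and 1999 to 2601 when 1 library was left out. The called rises (1957) were 1122 to 1912 with 1 library left out, the lowest without replicate 3 at 24 h and the next, 1222, without replicate 2 at 6 h. The called falls (993) were 1769 after median-of-ratios rescaling and 689 to 877 with 1 library left out, and changes of at least 2-fold (1660) were 1253 to 1710 with 1 library left out and 1394 to 1982 under the other settings. The IL-4 difference (873 genes) was 1674 after median-of-ratios rescaling, 1594 without mitochondrial, ribosomal protein and pseudogene transcripts, 572 without a filter and 405 to 3887 with 1 library left out. The IL-21 difference (539) was 377 to 537 and that with both cytokines (789) 558 to 637 with 1 library left out. Why these counts moved was not tested, except that fewer libraries enter when one is left out. Of 204 named genes that were called, 153 kept their call under every alternative run, and 0 of 264 reversed. No label says whether the replicate numbers pair the libraries, and the main fit did not pair them. The correlation of deviations between same-numbered libraries of 6 h and 24 h was 0.129, 0.194 and 0.024. Between differently numbered libraries it ranged from -0.192 to 0.115. So few values cannot decide whether the libraries are paired. With a replicate block 3350 genes were called, 2207 higher and 1143 lower, and the 3 differences held 1110, 692 and 972 genes; Fcer2a, Bcl2a1b, Npm1, Nfkbia, Mcm5 and Txnip were among the genes called with the block and not without it. TPM carry no depth, so the counting error of low values is unknown.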

Other observations

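Several strong changes fell outside the gene lists. Utf1, a chromatin factor known from stem cells, was under 0.3 TPM in naive cells, at 13.1, 9.97 and 10.5 TPM at 6 h and at 1.01, 0.739 and 0.676 TPM at 24 h (-2.75 ± 0.22, adjusted p = 1.29e-08). Lilr4b followed the same course, at 24.2, 26.4 and 17.4 TPM and then at 2.98, 2.26 and 4.33 TPM (-2.51 ± 0.27, adjusted p = 7.92e-07). Car2, carbonic anhydrase II, went from 48.9, 39.1 and 42.5 TPM to 12.5, 8.68 and 12.5 TPM (-1.87 ± 0.22, adjusted p = 2.59e-06). In each of these genes the 6 h libraries stood clear of the 24 h ones, as in 2906 of the 2950 called genes.

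Tm6sf1 and B3gnt8, which encodes a glycosyltransferase, were nearly lost at 6 h and returned in part. Tm6sf1 was at 73.5, 39.4 and 40.7 TPM in naive cells, at 1.72, 0.865 and 0.464 TPM at 6 h and at 20.8, 14.2 and 25.2 TPM at 24 h (3.40 ± 0.29, adjusted p = 2.71e-08). B3gnt8 changed by 2.86 ± 0.29 (adjusted p = 3.88e-07). Itgal, the αL chain of the integrin LFA-1, was at 31.5, 17.8 and 14.4 TPM in naive cells, at 31.5, 15.5 and 13.7 TPM at 6 h and at 65.7, 59.5 and 80.7 TPM at 24 h (1.80 ± 0.44, adjusted p = 0.00459). Rab35, a small G protein of endosomes, was listed at 0 in all 3 libraries at 6 h and in 2 naive libraries, and was at 14.2, 11.2 and 9.24 TPM at 24 h. Whether these zeros are failed estimates was not tested.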
